A study of Rattus norvegicus with 6 samples.

Results

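The genes of nucleotide synthesis, salvage and breakdown and of folate one-carbon metabolism were examined in macrophages of the brain borders after ischemia. The set held 37 genes, matched by symbol in the annotation of the array, out of 14217 genes that the array names. A probe set counted only if it named a single gene, and where a gene had several the one of highest mean over the 6 arrays was used. By this rule 33 of the 37 genes had a value, and all 33 passed the low-signal filter, Mthfd1l by its ischemic arrays alone. Paics, Impdh1, Impdh2 and Tymp had no probe set of their own.

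The cells were CD11b+CD163+ perivascular and meningeal macrophages, called border-associated macrophages (BAMs), sorted by flow cytometry from the right hemisphere of adult male Sprague-Dawley rats. Controls were rats 63, 68 and 69, which had no ischemia, and rats 64, 65 and 66 underwent occlusion of the middle cerebral artery for 1 h and were studied after 16 h of reperfusion. RNA of each rat went to its own Affymetrix array, without pooling, so that rats were the replicates and n = 3 in each group. Sorting on CD163 takes every cell that carries the protein, whatever its origin, and in such bulk samples a change in the mix of cells and a change in RNA per cell cannot be told apart. By flow cytometry, the study reported some granulocytes among the sorted CD163+ cells of ischemic brain. It also reported that the CD163+ population at 16 h was similar to that of controls.

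Purine and pyrimidine nucleotides are the building blocks of RNA and DNA and also carry energy and activate sugars and lipids. Cells either build them anew from phosphoribosyl pyrophosphate (PRPP), amino acids and one-carbon units, or salvage them from bases and nucleosides. Folates carry the one-carbon units, which the mitochondrion makes from serine and exports as formate for purine and thymidylate synthesis. In macrophages these pathways serve RNA and cofactor supply as well as division, and breakdown of nucleosides yields uric acid and sugar phosphates.

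Most of the measured genes were higher after ischemia. Of the 33 genes, 22 (66.7%) rose, 1 fell and 10 did not pass the test, which was limma's moderated linear model at an adjusted p under 0.01 over 9928 genes. Among all 9928 genes 16.8% rose and 5.99% fell. The median log2 fold change, ischemia minus control, was 0.92 over the 33 genes and 0.10 over all genes tested. In 24 of the 33 genes every ischemic rat was above every control rat, against 35.7% of all genes, and in Umps and Ada every ischemic rat was below, against 19.9% of all genes. Values overlapped in the other 7 genes. At an adjusted p under 0.01 with a log2 fold change over 2, which 1.63% of all genes reached, there were 7 of the 33, namely Upp1, Xdh, Mthfd1l, Uck2, Ctps1, Shmt2 and Samhd1. Control values of Mthfd1l and Samhd1 lay partly or wholly below background, and with these raised to the background level their changes were at least 0.97 and 1.90.

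**Figure D1:**
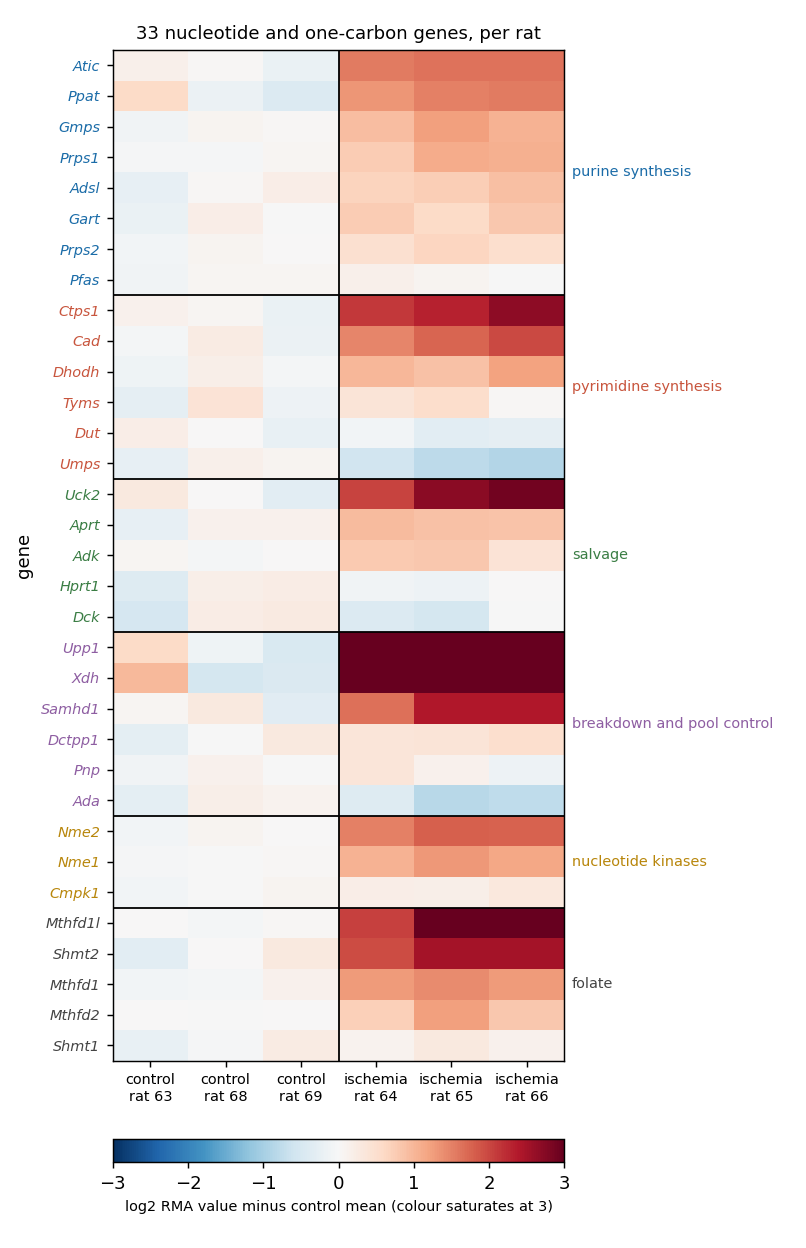
Each row is a gene, each column a rat, and the colour is the log2 RMA value minus the mean of the 3 control rats, with the colour saturated at 3. The 22 rising genes are red in all 3 ischemic rats, Umps and Ada are blue in them, and Upp1 and Xdh in all ischemic rats and Mthfd1l in rats 65 and 66 exceed the colour scale.

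Among the 22 rising genes, ischemic rat 64 had the lowest of the 3 ischemic values in 17, rat 65 the highest in 12 and rat 66 the highest in 8. Their median deviation from the control mean was 1.30 in rat 64, 1.46 in rat 65 and 1.42 in rat 66 on the log2 scale. The 3 controls had medians of -0.03, 0.03 and 0.01.

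The arrays and the sorted cells bear on all of these values. The median log2 value of an array lay between 7.82 and 7.90. The highest value was 13.85 in control rat 63 and lay between 14.88 and 14.96 in the other rats. All 9 measured BAM markers were expressed and none passed the test, with Cd163 at a mean of 13.30 in controls and 13.84 after ischemia. Their summed linear level was 68852 in control rat 63, 141582 and 127465 in control rats 68 and 69, and 70936 to 111504 after ischemia. Monocyte markers rose in 5 of 7 (Vcan, Fn1, Ly6c, S100a4 and Plac8). Their summed linear level ranged from 11479 to 16913 in controls and from 39167 to 64488 after ischemia. The log2 fold change was 6.74 for Vcan, 5.96 for Fn1, 4.68 for Ly6c and 0.43 for Ccr2 (adjusted p = 0.311 for Ccr2, limma). The study listed Vcan and Fn1 among the genes most raised in these CD163+ cells, and which cells carried them was not tested. Granulocyte markers rose in 2 of 5 tested, their sum ranging from 1057 to 1617 in controls and from 2300 to 6882 after ischemia. Lymphocyte markers rose in 2 of 6 tested (Cd2 and Cd8a) and fell in 2 (Cd4, which rat macrophages also carry, and Cd5), their sum ranging from 10911 to 20820 in controls and from 6582 to 9869 after ischemia, and Cd3e, Cd3g and Ms4a1 lay below background. Oligodendrocyte markers fell in 3 of 7, with sums of 9686 to 21539 in controls and 3948 to 6601 after ischemia. Microglia markers fell in 1 of 5, with sums of 9103 to 10418 and of 3605 to 6916. Of 7 astrocyte and neuron markers Gfap rose by 2.07 (adjusted p = 0.00563, limma) and Gria2 fell by 3.75 (adjusted p = 0.00173, limma), with sums of 2720 to 5693 and of 3201 to 3817, and of 5 endothelial markers none passed, with sums of 2861 to 7176 and of 2985 to 3349. The signal difference between 3′ and 5′ probe sets of actin lay between 0.06 and 0.07 in the controls and between 0.17 and 0.24 in the ischemic rats, on the log2 scale. Control rat 63 had the highest control sums of oligodendrocyte, of astrocyte and neuron, and of endothelial markers. In it Cldn5 measured 10.52, against 6.09 and 7.03 in control rats 68 and 69. The part of these shifts, and of the differences of control rat 63, in the results on nucleotide genes was not tested. Background was set at 7.66, the 90th percentile of 42 genes chosen as genes of other tissues. One of them, Ttr, at a mean of 12.06, is made by choroid plexus in the brain, and without it the level was 7.45. At either level 30 of the 33 genes lay above it in all 6 rats, the exceptions being Upp1, Samhd1 and Mthfd1l.

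The scaling of the arrays set how many of the 33 genes were called. RMA makes the overall distribution of the 6 arrays alike, and on that scale the 42 ribosomal protein genes were higher after ischemia by 0.43 on average. With each array centred on these genes, the median of all genes moved to -0.32, and 11 of the 33 genes were higher and 2 lower, against 4.02% and 13.4% of all genes. The 11 genes were Atic, Cad, Ctps1, Uck2, Upp1, Xdh, Samhd1, Nme2, Shmt2, Mthfd1 and Mthfd1l. The 11 rises lost were those of Prps1, Prps2, Ppat, Gart, Adsl, Gmps, Dhodh, Aprt, Adk, Nme1 and Mthfd2, whose changes stayed above 0 on that scale. Pfas, Tyms, Pnp, Dctpp1, Cmpk1 and Shmt1, which had not passed the test, moved from above to below 0. The lower genes there were Umps and Ada.

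**Figure D2:**
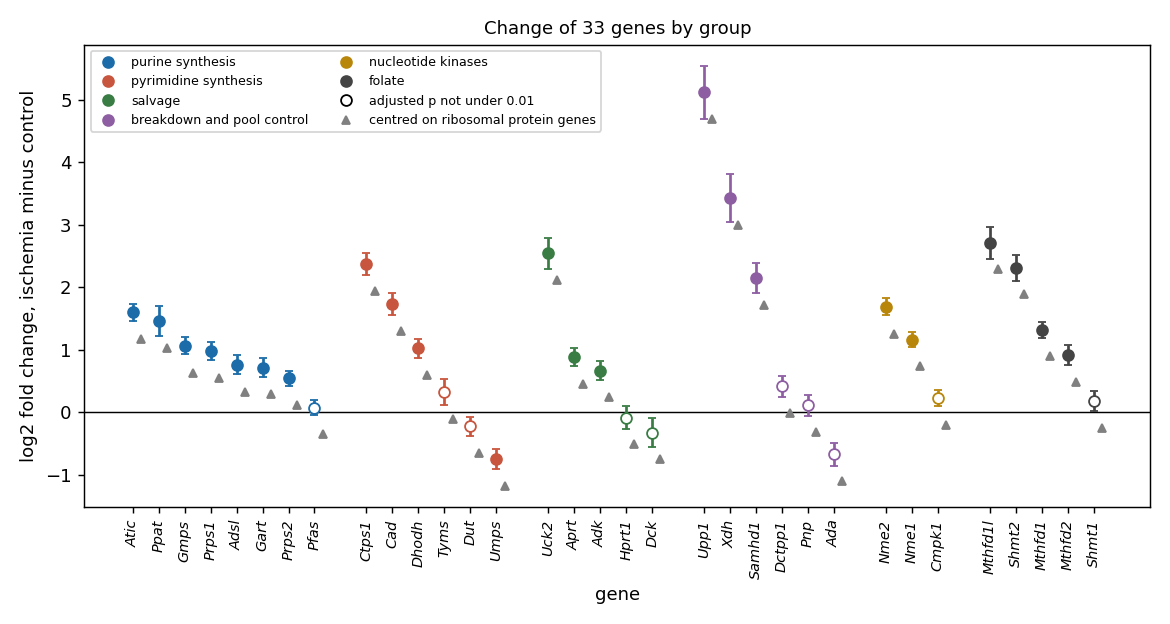
Log2 fold change of each gene, ischemia minus control, with bars of 1 SE from limma, filled where the adjusted p was under 0.01 and open otherwise, and grey triangles for the same change with the arrays centred on ribosomal protein genes. The range runs from -0.75 for Umps to 5.12 for Upp1, and the triangles lie lower by the 0.43 that ribosomal protein genes rose on average.

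Promoter windows are shown for genes on which the comparisons turn. The pair Shmt2 and Shmt1 encodes the mitochondrial and the cytosolic form of one enzyme, Atic and Cad act at the end of purine and at the start of pyrimidine synthesis, and Upp1 had the largest change of the 33 genes. Sequences are from RefSeq, assembly GRCr8, each running 5′ to 3′ on the strand of the gene from 250 bases before to 50 bases after its start, 300 bases in all. Capitals mark ACGTG read on either strand, a core to which the hypoxia-inducible factor HIF-1 can bind. The 6 letters CACGTG, which contain this core, form the E-box of MYC and related factors. The windows are chr7:65249518-65249817 (minus strand) for Shmt2, chr10:45990292-45990591 (minus) for Shmt1, chr9:80614061-80614360 (plus) for Atic, chr6:31034987-31035286 (minus) for Cad and chr14:88024420-88024719 (plus) for Upp1.
Shmt2: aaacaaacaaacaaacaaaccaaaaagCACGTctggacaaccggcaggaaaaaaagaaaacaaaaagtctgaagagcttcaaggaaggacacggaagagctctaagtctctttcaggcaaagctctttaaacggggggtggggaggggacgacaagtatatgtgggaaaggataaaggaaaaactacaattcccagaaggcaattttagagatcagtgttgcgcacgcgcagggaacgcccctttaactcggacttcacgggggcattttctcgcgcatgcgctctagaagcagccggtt
Shmt1: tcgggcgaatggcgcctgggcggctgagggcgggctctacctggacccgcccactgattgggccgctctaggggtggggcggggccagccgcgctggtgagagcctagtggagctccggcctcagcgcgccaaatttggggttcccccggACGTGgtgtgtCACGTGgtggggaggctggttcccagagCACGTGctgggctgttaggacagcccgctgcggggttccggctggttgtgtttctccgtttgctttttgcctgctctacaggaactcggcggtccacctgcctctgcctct
Atic: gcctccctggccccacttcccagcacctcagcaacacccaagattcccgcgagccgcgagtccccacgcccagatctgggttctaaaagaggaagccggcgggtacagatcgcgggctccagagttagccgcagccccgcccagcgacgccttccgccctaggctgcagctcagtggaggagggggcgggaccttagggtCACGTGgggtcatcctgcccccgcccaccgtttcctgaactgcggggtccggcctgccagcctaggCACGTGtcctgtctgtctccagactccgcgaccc
Cad: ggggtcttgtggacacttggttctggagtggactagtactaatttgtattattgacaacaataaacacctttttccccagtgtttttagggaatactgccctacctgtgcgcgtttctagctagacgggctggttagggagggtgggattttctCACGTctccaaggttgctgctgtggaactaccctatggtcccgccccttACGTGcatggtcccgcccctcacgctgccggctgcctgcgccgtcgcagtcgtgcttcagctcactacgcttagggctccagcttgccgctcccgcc
Upp1: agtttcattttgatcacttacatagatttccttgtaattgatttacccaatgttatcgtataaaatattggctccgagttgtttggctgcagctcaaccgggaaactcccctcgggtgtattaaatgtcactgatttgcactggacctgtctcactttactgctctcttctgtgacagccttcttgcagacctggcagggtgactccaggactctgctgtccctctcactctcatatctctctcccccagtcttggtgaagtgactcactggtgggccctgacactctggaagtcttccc

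The motif was found in windows of genes that rose and of genes that did not. Windows were held for 34 of the 37 genes. ACGTG was in those of 10 of the 34 genes (29.4%), namely 6 of 20 that rose, 3 of 10 others that were tested and Impdh2, which has no value, and in 19.3% of all 33469 windows of the genome table. CACGTG was in those of Atic, which rose, and Shmt1, which did not pass the test, and in 6.42% of all windows. GCGTG, the other form of the HIF-1 core, was in those of 20 of the 34 genes, 13 of 20 that rose, 3 of 10 others that were tested and all 4 without a value, and in 29.7% of all windows. Upp1 had none of the 3 motifs in its window, which says only that these letters are not in those 300 bases. The windows were not matched for base composition.

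Purine synthesis was higher after ischemia in all of its measured steps but that of Pfas. Of 8 measured genes 7 rose and none fell, with a median log2 fold change of 0.87, and with the arrays centred on ribosomal protein genes Atic alone of the 8 still passed. Prps1 and Prps2 make PRPP, the sugar phosphate on which purines are built. Prps1 measured 11.47, 11.47 and 11.57 in control rats 63, 68 and 69 and 12.27, 12.61 and 12.57 in ischemic rats 64, 65 and 66. It rose by 0.98 (SE 0.14, adjusted p = 0.00144, limma), a 1.98-fold change on the linear scale, with every ischemic rat above the controls. Prps2 measured 10.93, 11.09 and 11.03 in controls and 11.50, 11.65 and 11.53 after ischemia. Its rise of 0.54 (SE 0.12, adjusted p = 0.00961, limma) was the smallest of the 22 and passed the test narrowly, and leaving out any of the 6 rats took the adjusted p over 0.01, up to 0.0544.

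Ppat catalyses the committed step of the pathway, the transfer of an amino group onto PRPP. It measured 10.33, 9.57 and 9.34 in controls and 11.07, 11.25 and 11.31 after ischemia. Control rat 63 stood above the other controls but below all ischemic rats. The rise was 1.46 (SE 0.24, adjusted p = 0.00286, limma), with an adjusted p up to 0.014 when control rat 68 or ischemic rat 65 or 66 was left out. Paics, which encodes a later enzyme, starts next to Ppat on the opposite strand, and its only probe set also names another gene, so Paics has no value here. The windows of the pair share 74 bases, in capitals in the window of Ppat (chr14:31569760-31570059, plus strand), and these lie around the annotated starts of both genes.
Ppat: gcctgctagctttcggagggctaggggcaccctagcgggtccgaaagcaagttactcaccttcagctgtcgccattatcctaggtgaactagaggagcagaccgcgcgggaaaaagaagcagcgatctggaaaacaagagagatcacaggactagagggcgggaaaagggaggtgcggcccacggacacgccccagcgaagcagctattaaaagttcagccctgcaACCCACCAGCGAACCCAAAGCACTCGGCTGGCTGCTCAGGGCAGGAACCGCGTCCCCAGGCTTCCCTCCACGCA

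Gart, a trifunctional enzyme that includes a folate-dependent formyl transfer, measured 8.43, 8.83 and 8.62 in controls and 9.39, 9.20 and 9.43 after ischemia, and rose by 0.71 (SE 0.15, adjusted p = 0.00669, limma). Of the fits that left out 1 rat, the call held in that without control rat 68, and in the other 5 the adjusted p reached up to 0.0281. Pfas, an amidotransferase that acts between the steps of Gart, was the exception in this group. It measured 9.27, 9.44 and 9.44 in controls and 9.54, 9.46 and 9.39 after ischemia, overlapping values with a log2 fold change of 0.08 (adjusted p = 0.649, limma). Adsl, adenylosuccinate lyase, which acts in the main pathway and again in making AMP, rose by 0.76 (SE 0.15, adjusted p = 0.00601, limma). Its values were 9.77, 10.05 and 10.21 in controls and 10.67, 10.74 and 10.90 after ischemia, without overlap, and the adjusted p reached 0.0255 when control rat 63 or 68 or ischemic rat 65 or 66 was left out.

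Atic completes the purine ring by a folate-dependent formylation and closure to IMP. It measured 10.46, 10.34 and 10.10 in controls and 11.85, 11.93 and 11.92 after ischemia. The ischemic rats lay within 0.08 of each other and the groups were far apart. Atic rose by 1.60 (SE 0.14, adjusted p = 0.000286, limma), or 3.04-fold, the largest change in the group. Gmps, which makes GMP on the branch from IMP, rose by 1.06 (SE 0.13, adjusted p = 0.00107, limma), from 10.46, 10.66 and 10.60 to 11.50, 11.80 and 11.61. Both Impdh genes, which act just before Gmps, had no probe set of their own.

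Pyrimidine synthesis split. Of 6 genes 3 rose and Umps fell, while Tyms and Dut were not past the test, and the median log2 fold change was 0.67. Cad encodes the trifunctional enzyme that starts the pathway. It measured 9.25, 9.57 and 9.13 in controls and 10.78, 11.07 and 11.30 after ischemia, a rise of 1.73 (SE 0.18, adjusted p = 0.000526, limma) or 3.33-fold. Dhodh, the mitochondrial enzyme of the next step, coupled to the respiratory chain, rose by 1.02 (SE 0.15, adjusted p = 0.00169, limma). Its controls were 8.26, 8.58 and 8.35 and its ischemic values 9.39, 9.27 and 9.61, with no overlap for either gene.

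Umps, which completes UMP, went the other way. It measured 11.02, 11.43 and 11.36 in controls and 10.70, 10.47 and 10.38 after ischemia, with all ischemic rats below the controls. It fell by 0.75 (SE 0.16, adjusted p = 0.00751, limma), the only one of the 33 genes to fall. Without control rat 68 or 69 or ischemic rat 65 or 66 it no longer passed, with changes between -0.73 and -0.67 and adjusted p up to 0.0337. Set against Cad in the same rat, the change of Cad exceeded that of Umps by 2.48 (SE 0.28), with an exact two-sided permutation p of 0.1, the smallest that 3 rats against 3 allow. The adjusted value over the 4 gene pairs compared in this way was also 0.1. As every ischemic rat was above the controls in Cad and below them in Umps, the p of this pair was fixed by the separate results.

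Ctps1 converts UTP to CTP. It measured 8.29, 8.23 and 7.96 in controls and 10.28, 10.47 and 10.85 after ischemia, a rise of 2.37 (SE 0.18, adjusted p = 0.000185, limma) or 5.17-fold, without overlap. Ctps2, the other CTP synthase gene, differed by -0.02 on the log2 scale (SE 0.15, adjusted p = 0.936, limma) with values from 11.31 to 11.63 in controls and from 11.37 to 11.68 after ischemia. The change of Ctps1 exceeded that of Ctps2 by 2.39 (SE 0.30, exact permutation p = 0.1). The other probe set of Ctps1 did not show the rise, at 8.21, 8.04 and 8.11 in controls and 8.18, 8.31 and 8.05 after ischemia, with a change of 0.06 (adjusted p = 0.718, limma, over 14083 probe sets). The rise of Ctps1 therefore rests on a single probe set.

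The thymidylate genes did not pass the test. Tyms, thymidylate synthase, measured 8.32, 9.01 and 8.43 in controls and 8.98, 9.12 and 8.63 after ischemia, overlapping values with a change of 0.32 (adjusted p = 0.254, limma). Dut, which removes dUTP and supplies dUMP, measured 10.30, 10.11 and 9.88 in controls and 10.01, 9.78 and 9.83 after ischemia, a change of -0.23 (adjusted p = 0.259, limma). Its other probe set was lower after ischemia, with a change of -0.88 (adjusted p = 0.00779, limma). Tk1, thymidine kinase, which salvages thymidine for DNA synthesis, fell by 0.98 (SE 0.18, adjusted p = 0.00445, limma), from 13.04, 13.08 and 12.96 to 12.45, 11.88 and 11.81. Beside these, 2 of 16 tested markers of dividing cells rose, Mcm2 and Mcm6, and none fell, against 16.8% and 5.99% of all genes. In 6 of the 16, Mcm2 to Mcm7, every ischemic rat was above every control rat, against 35.7% of all genes. In 2, Mki67 and Ube2c, every ischemic rat was below, against 19.9%. Mki67 had a change of -0.48 (adjusted p = 0.0675, limma) and Top2a a mean of 7.95 in both groups.

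Salvage genes rose in 3 of 5, with a median log2 fold change of 0.67. Uck2, a uridine and cytidine kinase, measured 8.60, 8.31 and 7.999 in controls and 10.33, 11.01 and 11.19 after ischemia. It rose by 2.54 (SE 0.25, adjusted p = 0.000452, limma) or 5.82-fold, and the groups were apart. The related kinases did not pass the test, Uck1 with a change of -0.04 (adjusted p = 0.84, limma) and Uckl1 with 0.42 (adjusted p = 0.0548, limma). The change of Uck2 exceeded that of Uck1 by 2.58 (SE 0.37, exact permutation p = 0.1).

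The purine salvage enzymes differed in their tests. Aprt, which turns adenine into AMP, measured 12.70, 13.08 and 13.07 in controls and 13.89, 13.82 and 13.80 after ischemia and rose by 0.89 (SE 0.15, adjusted p = 0.00251, limma), though not without ischemic rat 65 (adjusted p = 0.0133, limma). Adk, adenosine kinase, which clears adenosine to AMP, measured 10.26, 10.15 and 10.22 in controls and 11.00, 11.01 and 10.62 after ischemia. It rose by 0.67 (SE 0.15, adjusted p = 0.0085, limma), a call lost without any of the rats but ischemic rat 66, with adjusted p up to 0.0437. Hprt1, which recycles hypoxanthine and guanine, measured 12.19, 12.76 and 12.80 in controls and 12.47, 12.44 and 12.59 after ischemia, a change of -0.09 (adjusted p = 0.725, limma). Dck, deoxycytidine kinase, measured 8.86, 9.57 and 9.63 in controls and 8.94, 8.82 and 9.33 after ischemia, a change of -0.32 (adjusted p = 0.295, limma). Control rat 63 had the lowest control value of both genes, and the groups overlapped.

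Breakdown and pool control held the largest changes. Of 6 measured genes 3 rose and none fell, with a median log2 fold change of 1.28. Upp1, uridine phosphorylase, which splits uridine into uracil and ribose phosphate, measured 7.26, 6.54 and 6.23 in controls and 10.81, 12.33 and 12.24 after ischemia. Ischemic rat 64 was lower than the other ischemic rats and still far above the controls. Upp1 rose by 5.12 (SE 0.42, adjusted p = 0.000271, limma), which ranked 9 among the rises of the 9928 genes. All control values lay below the background level of 7.66, so that against this level the rise was at least 17.6-fold, or 20.3-fold with the level set without Ttr. Cda, which deaminates cytidine to uridine, did not reach the low-signal filter and was not tested.

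Xdh, xanthine dehydrogenase, which makes uric acid in purine breakdown, measured 9.54, 8.03 and 8.12 in controls and 12.28, 11.76 and 11.93 after ischemia. Control rat 63 was the highest control, as for Upp1. Xdh rose by 3.43 (SE 0.38, adjusted p = 0.000636, limma) or 10.7-fold, ranking 33 of 9928. Samhd1, which hydrolyses deoxynucleoside triphosphates and restricts viruses in myeloid cells, measured 7.49, 7.73 and 7.09 in controls and 9.08, 9.84 and 9.83 after ischemia. It rose by 2.15 (SE 0.25, adjusted p = 0.000744, limma). Control rats 63 and 69 lay below background, and with their values raised to that level the rise was at least 3.74-fold, or 4.07-fold with the level set without Ttr. Rrm1, a subunit of ribonucleotide reductase, which makes the deoxynucleotides that Samhd1 removes, had a change of 0.49 (adjusted p = 0.0561, limma), and Rrm2 had no probe set of its own.

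Pnp and Ada, which act ahead of Xdh, did not pass the test. Pnp, purine nucleoside phosphorylase, measured 12.79, 13.04 and 12.89 in controls and 13.27, 13.03 and 12.75 after ischemia, overlapping values with a change of 0.11 (adjusted p = 0.612, limma). Ada, adenosine deaminase, measured 9.62, 10.09 and 10.003 in controls and 9.51, 9.06 and 9.13 after ischemia. All ischemic rats were below the controls, yet the change of -0.67 (SE 0.18, adjusted p = 0.0194, limma) did not pass at 0.01. Dctpp1, which removes abnormal deoxycytidine triphosphates, measured 8.85, 9.14 and 9.44 in controls and 9.50, 9.53 and 9.66 after ischemia, with a change of 0.42 (adjusted p = 0.0779, limma).

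**Figure D3:**
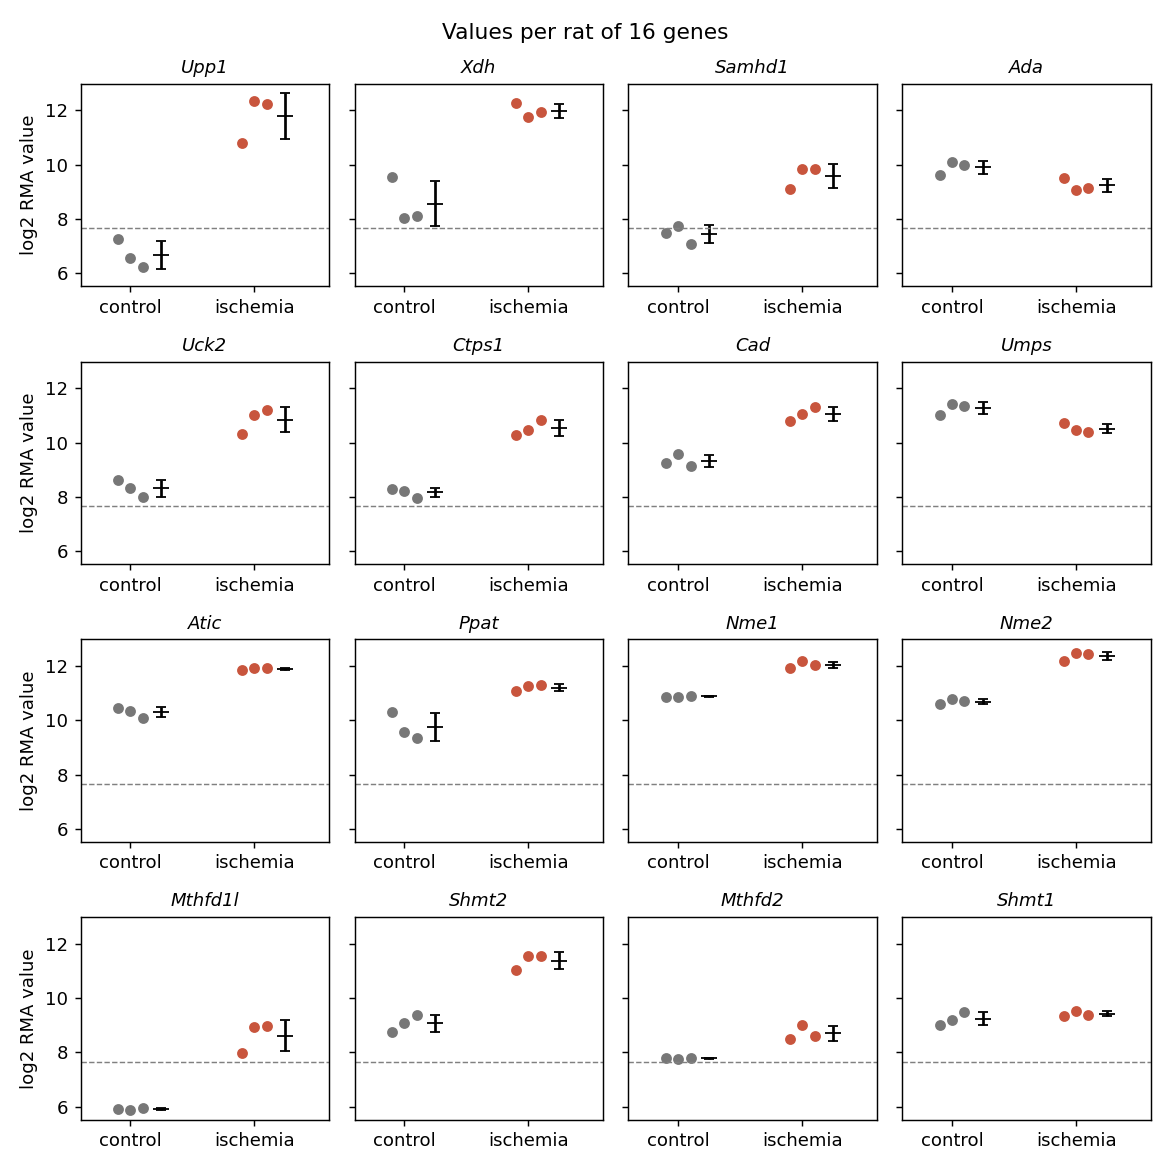
Log2 RMA value of 16 genes in each rat, controls in grey (63, 68, 69 from left to right) and ischemic rats in red (64, 65, 66), with the mean and bars of 1 SD (n = 3) and a dashed line at the background level of 7.66. Upp1 and Mthfd1l lie below the line in all 3 controls and above it after ischemia, Umps and Ada are lower after ischemia, and Shmt1 overlaps.

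Nucleotide kinases, which phosphorylate the products to the level that polymerases use, rose in 2 of 3, with a median log2 fold change of 1.16. Nme2, a nucleoside diphosphate kinase, measured 10.60, 10.78 and 10.70 in controls and 12.20, 12.49 and 12.46 after ischemia and rose by 1.69 (SE 0.13, adjusted p = 0.000242, limma), or 3.22-fold. Nme1, its close relative, measured 10.85, 10.88 and 10.92 in controls and 11.93, 12.17 and 12.03 after ischemia and rose by 1.16 (SE 0.12, adjusted p = 0.000594, limma). The pair lie next to each other on chromosome 10 and are alike in sequence, and whether their probe sets share signal was not tested. Cmpk1, which phosphorylates UMP and CMP, measured 12.13, 12.20 and 12.31 in controls and 12.41, 12.39 and 12.53 after ischemia, without overlap, with a change of 0.23 (adjusted p = 0.164, limma). Nme3, another kinase of the family, fell by 1.02 (SE 0.22, adjusted p = 0.00738, limma).

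Folate genes rose in 4 of 5, with a median log2 fold change of 1.32. Shmt2, the mitochondrial enzyme that takes a one-carbon unit from serine, measured 8.76, 9.10 and 9.36 in controls and 11.03, 11.57 and 11.56 after ischemia. It rose by 2.31 (SE 0.21, adjusted p = 0.000363, limma) or 4.97-fold. Shmt1, its cytosolic counterpart, measured 9.02, 9.22 and 9.50 in controls and 9.36, 9.54 and 9.38 after ischemia, overlapping values with a change of 0.18 (adjusted p = 0.376, limma). In the same rats the change of Shmt2 exceeded that of Shmt1 by 2.13 (SE 0.16, exact permutation p = 0.1). Their promoter windows differ in the motif above, with 1 ACGTG for Shmt2 and 5 for Shmt1 counted over both strands. In that count each of the 2 CACGTG of Shmt1 enters once on each strand.

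The other mitochondrial genes rose with Shmt2. Mthfd1l, which releases formate in the mitochondrion, measured 5.92, 5.86 and 5.95 in controls and 7.97, 8.94 and 8.96 after ischemia, with rat 64 the lowest of the ischemic rats. It rose by 2.71 (SE 0.26, adjusted p = 0.000418, limma), and since all controls lay below background this is at least 1.96-fold against that level, or 2.25-fold with the level set without Ttr. No control reached the low-signal filter of 7.16, so that Mthfd1l was tested only because of its ischemic values. With that filter left out it passed as well. Mthfd2, the mitochondrial dehydrogenase and cyclohydrolase, measured 7.81, 7.77 and 7.79 in controls and 8.50, 9.02 and 8.61 after ischemia and rose by 0.92 (SE 0.16, adjusted p = 0.00338, limma). Without any rat but ischemic rat 64 its adjusted p passed 0.01, up to 0.0134. Mthfd2l, which encodes an isozyme, rose by 1.75 (SE 0.22, adjusted p = 0.000993, limma), from 6.96, 7.76 and 7.72 to 9.14, 9.28 and 9.26. Mthfd1, the trifunctional cytosolic enzyme that puts formate back on folate, measured 9.07, 9.09 and 9.27 in controls and 10.41, 10.56 and 10.41 after ischemia and rose by 1.32 (SE 0.13, adjusted p = 0.000427, limma).

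Genes that supply serine and carry folate were read beside Shmt2. Phgdh, which starts serine synthesis, rose by 1.40 (SE 0.19, adjusted p = 0.00134, limma), and Psph, which ends it, rose by 1.10 (SE 0.15, adjusted p = 0.00119, limma). Psat1, the step between them, measured 10.94, 9.97 and 9.36 in controls and 9.48, 10.96 and 10.97 after ischemia, wide and overlapping, with a change of 0.38 (adjusted p = 0.562, limma). Sfxn1, a mitochondrial serine carrier, measured 7.89, 7.91 and 7.39 in controls and 9.69, 10.77 and 11.08 after ischemia and rose by 2.78 (SE 0.34, adjusted p = 0.000914, limma). Slc25a32, the mitochondrial folate carrier, rose by 1.42 (SE 0.16, adjusted p = 0.000636, limma), and as all its controls lay below background the rise was at least 1.38-fold. Like Mthfd1l, it passed the low-signal filter by its ischemic arrays alone. Among other folate carriers, Slc19a1, below background in all 6 rats, had a change of 0.04 (adjusted p = 0.807, limma). Slc46a1 had a change of -0.64 (adjusted p = 0.0637, limma), with every ischemic rat below the controls.

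The pathways hold further enzymes and carriers, which were read as a list of their own. This list of 77 genes had 57 tested, of which 13 (22.8%) rose, 5 fell and 39 did not pass, with a median log2 fold change of 0.30. These shares lay near those of all genes tested, of which 16.8% rose and 5.99% fell. Of 14 other purine genes 4 rose and 1 fell, of 8 other pyrimidine genes 0 rose and 1 fell, and of 10 deoxynucleotide and nucleotidase genes 0 rose and 2 fell. Of 6 nucleoside transporters 2 rose and 1 fell, and of 19 other folate and serine genes 7 rose and 0 fell. At an adjusted p under 0.05, which 27.4% of all genes passed upward and 13.9% downward, 21 of the 57 were higher and 12 lower. None of the 5 falls passed when control rat 68 or 69 or ischemic rat 65 or 66 was left out. The largest rise was that of Slc28a2, a purine nucleoside transporter, which measured 8.59, 8.13 and 7.53 in controls and 11.65, 11.68 and 11.86 after ischemia, a change of 3.64 (SE 0.25, adjusted p = 0.000115, limma) or 12.5-fold. Slc28a2, Mthfd2l, Phgdh and Sfxn1 each had 1 of 3 control values below background. Ak4, a mitochondrial adenylate kinase, rose by 2.76 (SE 0.42, adjusted p = 0.00202, limma), and as 2 of its 3 controls lay below background the rise was at least 5.28-fold. Nt5c2, a cytosolic purine nucleotidase, fell by 1.18 (SE 0.24, adjusted p = 0.0058, limma), and Slc28a3, a broad nucleoside transporter, fell by 0.90 (SE 0.18, adjusted p = 0.0061, limma).

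Probe sets of one gene differed in places. Of the 33 genes, 10 had more than 1 fitted probe set, 23 in all. Prps1 rose in both, by 0.98 and 1.77, as did Cad, by 1.73 and 1.25, and Gart, by 0.71 and 1.05. The 3 probe sets of Gmps had changes of 1.06, 0.46 (adjusted p = 0.021, limma) and 0.08 (adjusted p = 0.754, limma). Beside the 0.54 of the probe set used, the other 2 of Prps2 had changes of 0.68 (adjusted p = 0.0378, limma) and 0.78 (adjusted p = 0.00259, limma). Pnp had changes of 0.11 and 0.04. The other probe set of Adk had a change of 0.37 (adjusted p = 0.104, limma), and the 3 of Dck had changes between -0.35 and -0.32. Such probe sets can read different transcript ends, and which of them reads the main transcript was not tested.

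**Figure D4:**
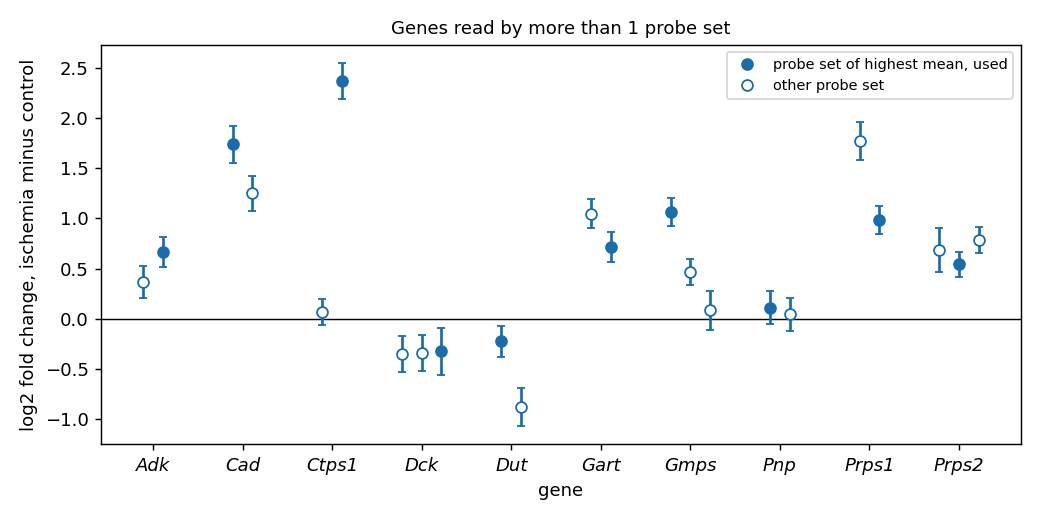
Log2 fold change, ischemia minus control, with bars of 1 SE from limma, for the 10 genes with more than 1 fitted probe set, filled for the probe set of highest mean, which is the one used, and open for the others. Ctps1 shows the widest gap, at 2.37 and 0.06, and all genes but Dut and Dck lie above 0 in every probe set.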

How the data were processed

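RNA of sorted cells from 6 rats was measured on 1 array each. The authors deposited log2 values from RMA, which corrects background, equalizes quantiles between arrays and summarizes the probes, and the submitters' processing notes name limma 3.18 and R 3.3.1. Of 31099 probe sets, 20826 named a single gene, 436 several and 9780 none. Genes entered the test if 3 or more arrays lay above 7.16, which was the 40th percentile of the values. The groups were compared in limma 3.58.1 (R 4.3.3) with its functions lmFit and eBayes, two-sided, with Benjamini-Hochberg adjustment over 9928 genes and an adjusted p under 0.01. Tables were handled in Python 3.11.15 with pandas 2.3.3, and exact permutation tests were run with scipy 1.17.1. The fit was tested on simulated data.

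Every one of the 37 genes is named. Of the other pathway genes, up to 4 with the largest rise and up to 4 with the largest fall past the test are named, and those of the same step as one of the 37. Slc19a1 and Slc46a1 are named beside Slc25a32. Genes of the 37 and the lists were chosen with earlier results of these data known. Alternatives covered filters, probe sets, scaling, moderation, weights, thresholds and leaving out each rat. Fitting every probe set was added after seeing the data. An array has no read depth, and the number of rats limits precision.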

Additional observations from a re-analysis of the deposited data

How the results depend on the processing

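Directions and calls were recomputed under other filters, probe set rules, scalings, moderations, weights and thresholds and without each rat. Of the 22 rises, 11 passed in each of the 18 alternatives that kept the moderation and the threshold, except that Mthfd1l was not tested under the 60th percentile filter (Atic, Cad, Ctps1, Uck2, Upp1, Xdh, Samhd1, Nme2, Shmt2, Mthfd1 and Mthfd1l). Leaving out a rat gave 15 to 19 rising and 0 to 2 falling genes of the 33, and 12 to 13 rising and 0 to 8 falling of the other pathway genes, while 6.86% to 15.8% of all genes rose and 1.67% to 8.22% fell. The 15 were found without ischemic rat 65, and 8 genes (Prps2, Ppat, Gart, Adsl, Umps, Aprt, Adk and Mthfd2) lost their call without at least 1 rat. The count of 0 falling pathway genes was found without control rats 68 or 69 or ischemic rats 65 or 66, that of 2 without control rat 63, and that of 8 without ischemic rat 64.

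Centring on ribosomal protein genes gave 11 rising and 2 falling of the 33, and 8 and 11 of the other pathway genes. Median centring gave 2 falling and 10 falling, repeated quantile normalization 2 and 8, and array weights 2 and 13. Of all genes 13.4%, 11.9%, 10.8% and 13.2% fell under these settings, and 4.02%, 12%, 12.5% and 23.9% rose. A log2 fold change beyond 2 left 7 rising and 0 falling, and 3 and 0. An adjusted p under 0.05 gave 2 falling of the 33, and 21 rising and 12 falling of the others. Without the low-signal filter 0 and 2 fell, with the mean of probe sets 3 of the others fell, and with the probe set of largest variance 2 of the 33 fell. Of all genes 3.07%, 6.07% and 6.43% fell under these settings, and 10.3%, 17.2% and 17.7% rose. Of the 33, 21, 20 and 21 rose under them. An ordinary linear model (limma's lmFit without moderation) called 0 genes in every list and direction, and 0 of all 9928 genes. The lowest adjusted p of that model was 0.011 among the 33 and 0.0101 among all genes. Of the 33, 25 had an unadjusted p under 0.05, 23 of them higher. Of all 9928 genes, 4478 had an unadjusted p under 0.05 in either direction. DESeq2 and edgeR do not apply to array values.

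Signs changed only for genes that did not pass the test, apart from Dguok, which had a log2 fold change of 0.54 with the probe set of largest variance. With ribosomal centring the changes were -0.35 for Pfas, -0.10 for Tyms, -0.32 for Pnp, -0.0082 for Dctpp1, -0.20 for Cmpk1, -0.25 for Shmt1, -0.0057 for Uckl1 and -0.051 for Psat1. With median centring they were -0.098 for Pfas and -0.063 for Pnp, and with repeated quantile normalization -0.075 and -0.090. Without a rat, Hprt1 ranged from -0.28 to 0.0231, Pnp from -0.0156 to 0.24, Uck1 from -0.14 to 0.0123 and Ctps2 from -0.12 to 0.0468. No paired analysis was possible because the groups share none of the numbers in the labels, which were taken as rat numbers.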

Other observations

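Further genes of the pathways were past the test and were chosen for mention after their values were seen. Gda, guanine deaminase, measured 11.22, 12.02 and 11.90 in controls and 13.36, 13.47 and 13.51 after ischemia, a rise of 1.73 (SE 0.21, adjusted p = 0.00092, limma). Fpgs, which adds glutamates to folate and so holds it in the cell, rose by 1.50 (SE 0.18, adjusted p = 0.000872, limma). Gcsh, the carrier protein of the glycine cleavage system, rose by 1.30 (SE 0.12, adjusted p = 0.000418, limma), while its partners Gldc and Amt had changes of 0.30 (adjusted p = 0.458, limma) and -0.33 (adjusted p = 0.117, limma). Itpa, which removes inosine triphosphate, rose by 1.18 (SE 0.14, adjusted p = 0.000872, limma). Dguok, the mitochondrial deoxyguanosine kinase, measured 10.34, 10.28 and 10.30 in controls and 9.72, 9.40 and 9.58 after ischemia, and fell by 0.74 (SE 0.13, adjusted p = 0.00366, limma), whereas its probe set of largest variance had a change of 0.54.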
